A study of Mus musculus with 9 samples.

Results

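The 10 genes described here encode transcription factors that are commonly used to tell one hypothalamic nucleus from another: Nkx2-1, Sim1, Otp, Nr5a1, Fezf1, Lhx1, Lhx6, Isl1, Tbx3 and Nhlh2. They were taken by gene name from a deposited table of read counts for 54532 genes, and each name matched 1 row. RNA came from the hypothalamus of wild-type male ICR mice, an outbred stock, on postnatal day 21, in 3 groups of 3 libraries. LP pups had dams on a low-fat diet with 10% of energy as fat and received PBS. HP pups also received PBS, and their dams ate a high-fat high-sucrose diet with 45% of energy as fat. HA pups had dams on that same high-fat high-sucrose diet and received 4-PBA, or 4-phenylbutyric acid, a chemical chaperone that also inhibits histone deacetylases. Every pup in the 3 groups was injected daily from postnatal day 4 to 16. The diets started when the dams were 5 weeks old, ran for 5 weeks up to mating and went on through gestation and nursing, and litters held 10 pups. The labels do not say how the hypothalamus was cut out, so the genes serve here as a reading of which nuclei the tissue holds.

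The hypothalamus is built from nuclei that arise from separate progenitor domains, and a nucleus keeps part of its founding set of transcription factors after its neurons have matured. Such factors bind DNA through homeodomains, zinc fingers, T-boxes or helix-loop-helix domains and direct which neuropeptides a neuron makes. A whole-hypothalamus library mixes all nuclei, so the level of an identity factor depends both on how many cells of its nucleus were taken and on how much of its RNA each cell holds, and the 2 cannot be told apart in bulk RNA.

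Total counts lay between 18226924 and 21823961 per library. Whether the 3 pups of a group had different mothers is not stated, so the p-values describe only the scatter among these libraries, some of which may be technical. Titles carry a code that differs between the diets (Lg42 and Lg63 in LP, Hg43 and Hg13 in HP and HA). In comparisons with LP, code and diet therefore cannot be told apart. HP and HA share their codes, with Hg43 in replicates 1 and 2 and Hg13 in replicate 3 of each group. The libraries differed in neighbouring tissue. Summed over 7 striatal markers, LP replicates 1 and 2 held 373.6 and 494.9 CPM (the count scaled to a common library size), against 212.9 to 243.3 CPM in the other libraries. Summed over 6 meningeal markers, LP replicate 3 and HA replicate 3 held 327.7 and 657.1 CPM, against 53.0 to 103.4 CPM in the others. Summed over 7 pituitary markers, HA replicate 3 held 50.2 CPM against 14.6 to 29.1 CPM in the others, with Gh at 16.2 CPM against 0 to 2.53 CPM, while Pou1f1, a defining factor of Gh cells, lay between 0 and 0.0538 CPM in all libraries.

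All 10 genes were present in every library, at mean counts from 225.4 (Lhx6) to 1021 (Otp). Compared per gene length, as FPKM (fragments scaled to gene length and library total), the homeodomain gene Otp was highest with 18.1 ± 1.98 FPKM (SD, n = 9 libraries) and the tuberal gene Nkx2-1 next with 14.5 ± 1.43 FPKM. Fezf1 followed with 9.54 ± 1.36 FPKM, Isl1 with 6.54 ± 0.703, Nr5a1 with 4.70 ± 0.886 and Lhx1 with 3.87 ± 0.570 FPKM. Nhlh2 (2.42 ± 0.355 FPKM), Lhx6 (2.38 ± 1.61 FPKM) and Tbx3 (2.30 ± 0.488 FPKM) did not differ beyond their spread. Sim1 was lowest with 1.81 ± 0.159 FPKM. Among neighbours in this order, the 9-library ranges overlapped for every pair except Nkx2-1 and Fezf1. Otp was nevertheless above Nkx2-1 within each of the 9 libraries, and Tbx3 above Sim1 within each of the 9.

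**Figure D1:**
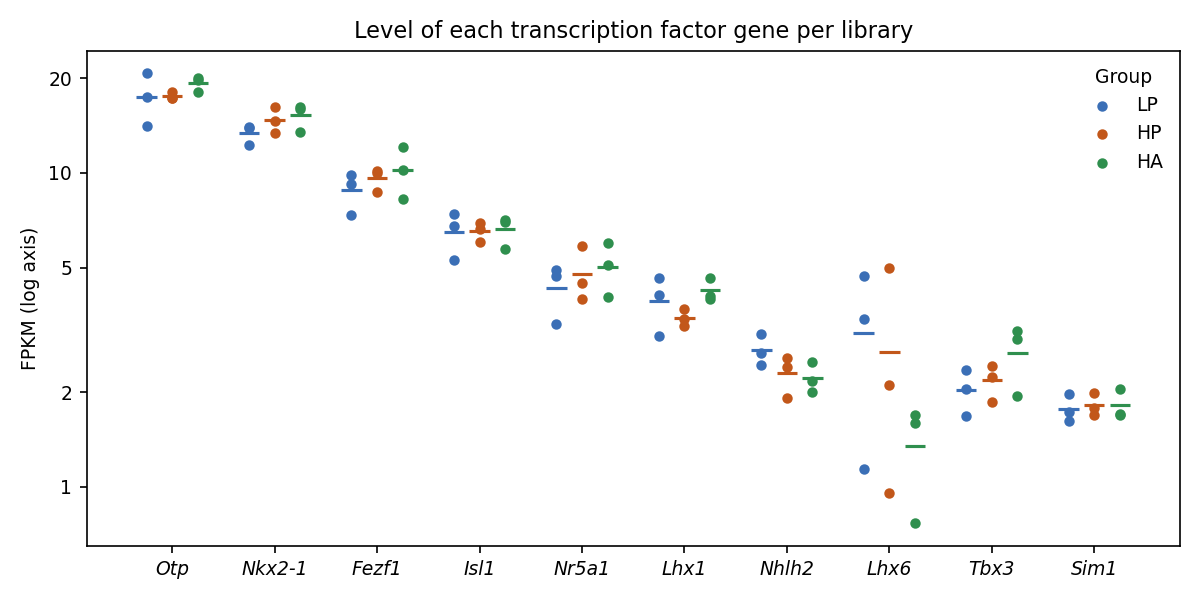
FPKM of the 10 genes (log axis), 1 point per library and a bar at the mean of each group of 3 libraries. The order from Otp to Sim1 spans 18.1 to 1.81 FPKM on average, and the points of Lhx6 spread from 0.767 to 4.999 FPKM.

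Otp and Sim1 are both needed for the neurosecretory neurons of the paraventricular and supraoptic nuclei. Otp (ENSMUSG00000021685, chromosome 13, 94875602 to 94885130, GRCm38, plus strand) stood at 60.05, 40.8 and 50.5 CPM in LP replicates 1 to 3, at 50.04, 50.02 and 52.4 CPM in HP and at 52.2, 57.2 and 57.95 CPM in HA. The LP libraries held both the highest and the lowest value of Otp, so the groups overlapped. Sim1 (ENSMUSG00000019913, chromosome 10, 50894754 to 50989152, plus strand), a helix-loop-helix gene of the PAS family, stood at 17.05, 14.02 and 15.0 CPM in LP, at 14.7, 15.4 and 17.3 CPM in HP and at 14.8, 17.8 and 14.7 CPM in HA. Its highest library was 1.27 times its lowest, the smallest ratio among the 10 genes and below the median of 1.34 over the 17546 genes tested. Its SD of log2 CPM within groups was at or above that of 58.1% of the 2718 genes within 1.5-fold of its mean CPM.

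Nr5a1 and Fezf1 mark the ventromedial nucleus. Nr5a1 encodes SF-1, the nuclear receptor without which that nucleus does not form properly, and Fezf1 encodes a zinc finger factor of the same neurons. Nr5a1 (ENSMUSG00000026751, chromosome 2, 38692656 to 38714542, minus strand) stood at 19.9, 14.1 and 20.8 CPM in LP, at 16.9, 24.9 and 19.0 CPM in HP and at 17.1, 25.5 and 21.7 CPM in HA. Fezf1 (ENSMUSG00000029697, chromosome 6, 23245044 to 23248362, minus strand) stood at 23.8, 17.9 and 22.2 CPM in LP, at 21.1, 24.4 and 24.2 CPM in HP and at 19.9, 29.1 and 24.8 CPM in HA. Both genes were lowest in LP replicate 2 and highest in HA replicate 2, with each group spanning much of the other groups' range. Nr5a1 is also expressed by pituitary gonadotropes, whose hormone genes were low but not absent. Lhb stayed between 0.724 and 1.61 CPM and was highest in LP replicate 2, the library lowest in Nr5a1. Cga, also made by thyrotropes, ranged from 7.99 to 24.5 CPM. It was highest in HP replicate 2 (21.3 CPM), HA replicate 2 (16.8 CPM) and HA replicate 3 (24.5 CPM). These 3 libraries were also the highest in Nr5a1. Tshb, another of the pituitary markers, was instead highest in HA replicate 1 (4.28 CPM), where Nr5a1 stood at 17.1 CPM. The part of pituitary tissue in the level of Nr5a1 was not tested.

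Lhx1, a LIM-homeodomain gene, is known in the hypothalamus for the suprachiasmatic nucleus, the circadian pacemaker, where it keeps the clock neurons coupled. It lies on chromosome 11 (ENSMUSG00000018698, 84518284 to 84525535, minus strand). Lhx1 stood at 16.7, 12.4 and 18.9 CPM in LP, at 13.3, 15.0 and 14.01 CPM in HP and at 16.6, 18.9 and 16.2 CPM in HA. The HA libraries were all above the HP libraries, while LP spanned both.

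Isl1, Tbx3 and Nhlh2 are read here for the arcuate nucleus and are not taken to be confined to it. Isl1 is a LIM-homeodomain gene required for the expression of Pomc, the precursor of satiety-promoting melanocortins. Isl1 (ENSMUSG00000042258, chromosome 13, 116298281 to 116309689, minus strand) stood at 29.4, 27.0 and 21.02 CPM in LP, at 27.6, 26.3 and 23.9 CPM in HP and at 22.8, 27.7 and 28.3 CPM in HA. Isl1 is also known in striatal neurons. Of the libraries rich in striatal markers, LP replicate 1 had the highest Isl1 and LP replicate 2 was in the middle of its range, and the part of striatal tissue was not tested. Tbx3, a T-box gene that maintains the peptidergic identity of arcuate neurons and is also expressed by tanycytes, lies on chromosome 5 (ENSMUSG00000018604, 119670669 to 119684724, plus strand). It stood at 13.6, 11.2 and 15.7 CPM in LP, at 12.4, 16.2 and 15.0 CPM in HP and at 12.9, 19.6 and 20.9 CPM in HA. The values of Tbx3 in HA replicates 2 and 3 exceeded all others, while HA replicate 1 lay within the range of LP and HP. HA replicate 3 was also the library highest in Rax (2.29 CPM against 0.805 to 1.81), a gene of tanycytes, and whether this bears on Tbx3 was not tested. Nhlh2, a helix-loop-helix gene whose loss makes mice obese, lies on chromosome 3 (ENSMUSG00000048540, 102010076 to 102015492, plus strand). It stood at 13.3, 14.6 and 16.7 CPM in LP, at 10.4, 13.1 and 14.01 CPM in HP and at 13.6, 10.9 and 11.8 CPM in HA. The mean was highest in LP, and each pair of groups overlapped.

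Nkx2-1 is the homeodomain gene that specifies the tuberal hypothalamus as a whole. Nkx2-1 (ENSMUSG00000001496, chromosome 12, 56531958 to 56536908, minus strand) stood at 39.9, 35.0 and 39.6 CPM in LP, at 41.8, 46.3 and 38.3 CPM in HP and at 38.6, 45.6 and 46.4 CPM in HA. Its ratio of highest to lowest library, 1.33, was close to the median of all genes tested. Its SD of log2 CPM within groups was at or above that of 81.8% of the 3246 genes within 1.5-fold of its mean CPM.

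Lhx6 varied more between libraries than any other member. This LIM-homeodomain gene marks GABA neurons of the dorsomedial hypothalamus and zona incerta, and it is also the standard marker of interneurons and pallidal neurons that come from the medial ganglionic eminence outside the hypothalamus. Lhx6 (ENSMUSG00000026890, chromosome 2, 36081953 to 36105408, minus strand) stood at 16.5, 22.7 and 5.48 CPM in LP, at 24.1, 4.61 and 10.2 CPM in HP and at 8.195, 3.69 and 7.72 CPM in HA. LP and HP each held high and low libraries, and LP replicates 1 and 2 and HP replicate 1 stood above all others. The highest library was 6.53 times the lowest, and the SD of log2 CPM within groups was 0.987, above that of 98.4% of the 2319 genes tested with a mean CPM within 1.5-fold of that of Lhx6. For the other 9 genes the ratio of highest to lowest lay between 1.27 and 1.86. Their percentage lay between 58.1% (Sim1) and 93.65% (Nr5a1), each among genes within 1.5-fold of its own level.

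The 3 libraries high in Lhx6 were also high in Lhx8 and Chat, from a list of 7 markers of basal forebrain and ganglionic interneurons. Lhx8, which specifies cholinergic neurons of the basal forebrain and preoptic area, had 11.1 CPM in HP replicate 1, while LP replicates 2 and 1 had 9.19 and 7.74 CPM and the remaining libraries 0.570 to 3.50 CPM. Chat, the acetylcholine synthesis gene, stood at 10.5, 13.4 and 10.4 CPM in those libraries, against 0.518 to 5.80 CPM elsewhere. Both genes therefore separated the same libraries as Lhx6. The other markers of that list, Sst, Pvalb, Nkx2-1, Sox6 and Erbb4, did not. In the same order of libraries, Pvalb stood at 17.2, 18.9 and 16.4 CPM, against 15.98 to 20.6 CPM elsewhere. Sox6 stood at 47.3, 40.0 and 34.7 CPM, against 28.7 to 43.96 CPM. Erbb4 stood at 85.7, 93.8 and 92.1 CPM, against 70.6 to 90.5 CPM. Nkx2-1 was lowest in LP replicate 2 (34.96 CPM). Striatal markers were mixed. In HP replicate 1 Adora2a (2.39 CPM), Ppp1r1b (8.35 CPM) and Rgs9 (34.5 CPM) had their lowest values of the 9 libraries. Penk, at 103.4 CPM there, came next after LP replicates 2 and 1, and the sum over all 7 striatal markers, 243.3 CPM, was just above the 212.9 to 237.9 CPM of the libraries lower in Lhx6. Over all 7 markers of basal forebrain and ganglionic interneurons, 1 of which is Nkx2-1 itself, the summed level overlapped between those 3 libraries (356.4 to 373.9 CPM) and the rest (333.4 to 362.7 CPM), and Sst made up the largest part of it. Of the 6 markers of cortex and hippocampus, Emx1 stayed between 0 and 0.267 CPM. The part of neighbouring tissue in the level of Lhx6 was not tested.

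**Figure D2:**
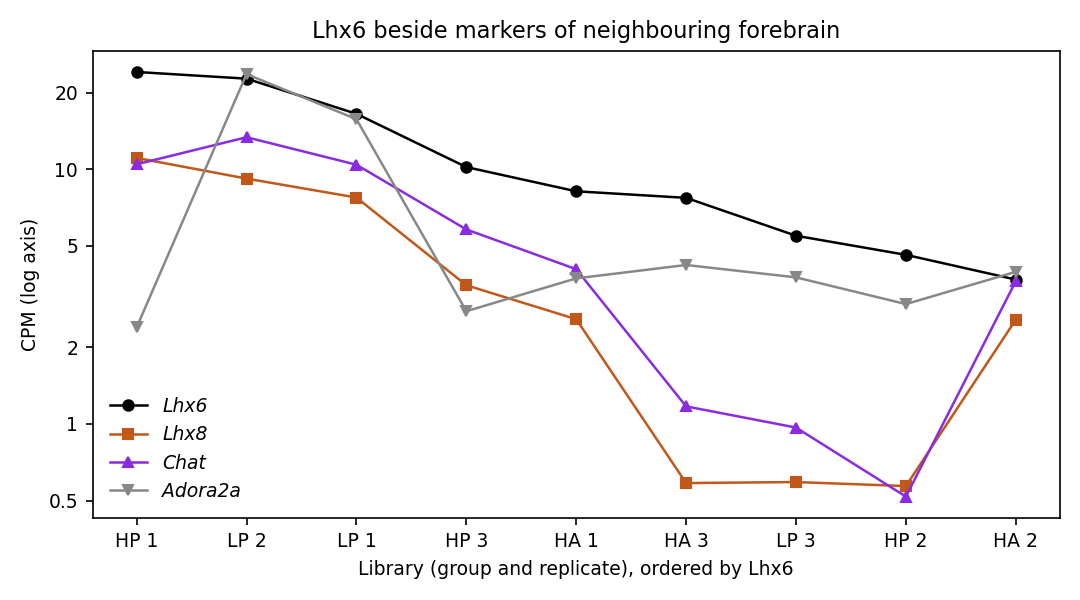
CPM (log axis) of Lhx6, Lhx8, Chat and the striatal gene Adora2a in the 9 libraries, ordered by Lhx6. Lhx8 and Chat were highest in the same 3 libraries as Lhx6, while Adora2a was at 2.39 CPM in HP replicate 1.

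In the embryonic medial ganglionic eminence NKX2-1 protein is known to activate Lhx6, so the upstream sequences of these 2 genes are shown beside their levels, which had a Pearson r of -0.61 over 9 libraries (two-sided exact permutation p = 0.0856, adjusted 0.179 over 45 pairs). RefSeq start sites (GRCm38.p6) matched 8 of the 10 members by symbol. The 250 bases before the start are shown 5′ to 3′ on the gene's strand, with capitals at CAGCTG, the E-box letters bound by helix-loop-helix factors such as NHLH2. RefSeq lists 3 starts for Lhx6, and the window of the outermost one is shown, chr2:36105409-36105658, minus strand. That of Nkx2-1 is chr12:56536909-56537158, minus strand. Neither window held an annotated exon, and the antisense gene Gm26973 overlaps Nkx2-1 itself.
Lhx6: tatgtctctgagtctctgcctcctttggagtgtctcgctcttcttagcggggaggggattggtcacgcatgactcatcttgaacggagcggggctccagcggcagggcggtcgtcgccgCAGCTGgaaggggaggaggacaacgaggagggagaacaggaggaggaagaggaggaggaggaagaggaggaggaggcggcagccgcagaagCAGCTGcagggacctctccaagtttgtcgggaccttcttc
Nkx2-1: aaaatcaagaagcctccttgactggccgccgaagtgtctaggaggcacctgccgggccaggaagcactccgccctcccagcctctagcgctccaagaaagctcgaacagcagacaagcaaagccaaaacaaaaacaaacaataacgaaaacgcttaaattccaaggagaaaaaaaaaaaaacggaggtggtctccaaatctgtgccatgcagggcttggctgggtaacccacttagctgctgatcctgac
CAGCTG, which reads the same on both strands, occurred 2 times in the Lhx6 window shown, from 131 and 40 bases before the start, and 0 times in the windows of the other 2 Lhx6 starts and in that of Nkx2-1. It occurred in 13.0% of all 32851 windows of the same length. CAAGTG, the core letters bound by NKX2 factors, was searched on both strands and was found in 0 windows of either gene, while 11.6% of all windows held it. These are letter matches in 1 window per start and no measure of binding.

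Comparison of the groups asked whether the maternal diet (HP against LP) or 4-PBA (HA against HP) went with a difference in any of the 10 genes. None was called in any comparison. All 10 were tested, and edgeR's quasi-likelihood test with Benjamini-Hochberg adjustment over 17546 genes called 0 of 10 in HP against LP, where 0.0114% of all genes were called. It called 0 of 10 in HA against HP, where 0.0114% of all genes were called, and 0 of 10 in HA against LP, where 0% were. Adjusted p-values of the members lay between 0.780 and 0.999. At an unadjusted p under 0.05 the count of members was also 0 in each comparison, where 6.12%, 5.42% and 6.51% of all genes were in the same order, a share that 0 of 10 is close to. DESeq2 and limma-voom called 0 of 10 as well.

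In HP against LP, 7 of the 10 estimates were above 0, with a median log2 fold change of 0.027 against -0.0024 over all genes. The median size regardless of sign was 0.135 for the members and 0.086 over all genes. Mean Nhlh2 was 14.9 ± 1.70 CPM for LP against 12.5 ± 1.87 CPM for HP (SD, n = 3 each), with an edgeR log2 estimate of -0.25 (SE 0.140, adjusted p = 0.852). It was -0.13 without HP replicate 1 and -0.16 without LP replicate 3. Nkx2-1, with means of 38.2 ± 2.77 and 42.2 ± 4.02 CPM, had an estimate of 0.14 (SE 0.0942, adjusted p = 0.886, edgeR), which was 0.068 without HP replicate 2 and 0.085 without LP replicate 2. For 7 members the 95% interval of the log2 fold change lay within the span from -0.56 to 0.45. It reached from -0.29 to 0.59 for Nr5a1, from -0.32 to 0.53 for Tbx3 and from -1.52 to 1.11 for Lhx6. In 0 of 10 members did the HP libraries all lie above the LP libraries (5.93% of all genes tested) or all below them (5.83%).

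In HA against HP, 7 of 10 estimates were again above 0 (median 0.062, against 0.0027 over all genes). Lhx1 averaged 14.1 ± 0.869 CPM over HP and 17.3 ± 1.45 CPM over HA (SD, n = 3 each). Its log2 estimate was 0.29 by edgeR, with a 95% interval from -0.030 to 0.61 (SE 0.144, adjusted p = 0.840). It was the 1 of 10 members whose HA libraries all lay above the HP libraries, as they did for 5.92% of all genes tested. In 0 of 10 did they all lie below, against 5.89% of all genes. Tbx3 stood at 14.5 ± 1.92 and 17.8 ± 4.27 CPM (log2 fold change 0.29, SE 0.189, adjusted p = 0.840, edgeR). That estimate was 0.48 without HA replicate 1, 0.16 without HA replicate 3 and 0.19 without HP replicate 1. Lhx6 stood at 13.0 ± 10.0 and 6.54 ± 2.48 CPM, with a log2 fold change of -0.98 and an SE of 0.613 (adjusted p = 0.840, edgeR). HP replicate 1 carried much of that estimate, since without it the log2 fold change was -0.18.

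HA against LP shares its libraries with both comparisons above and is no separate evidence. Here 8 of 10 estimates were above 0, with a median of 0.127 against 0.0057 over all genes. Tbx3 averaged 13.5 ± 2.24 CPM over LP and 17.8 ± 4.27 CPM over HA (SD, n = 3 each), an edgeR log2 estimate of 0.40 with a 95% interval from -0.022 to 0.82 (SE 0.189, adjusted p = 0.780). Lhx6 had one of -1.19 (SE 0.611, edgeR adjusted p = 0.797), which was -0.75 without LP replicate 2 and 0.25 without LP replicates 1 and 2. Nhlh2 had one of -0.29 (SE 0.140, adjusted p = 0.785), and Nkx2-1 one of 0.19 (SE 0.0941, adjusted p = 0.791). In 0 of 10 members did the HA libraries all lie above the LP libraries (5.4% of all genes tested) or all below them (5.51%).

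**Figure D3:**
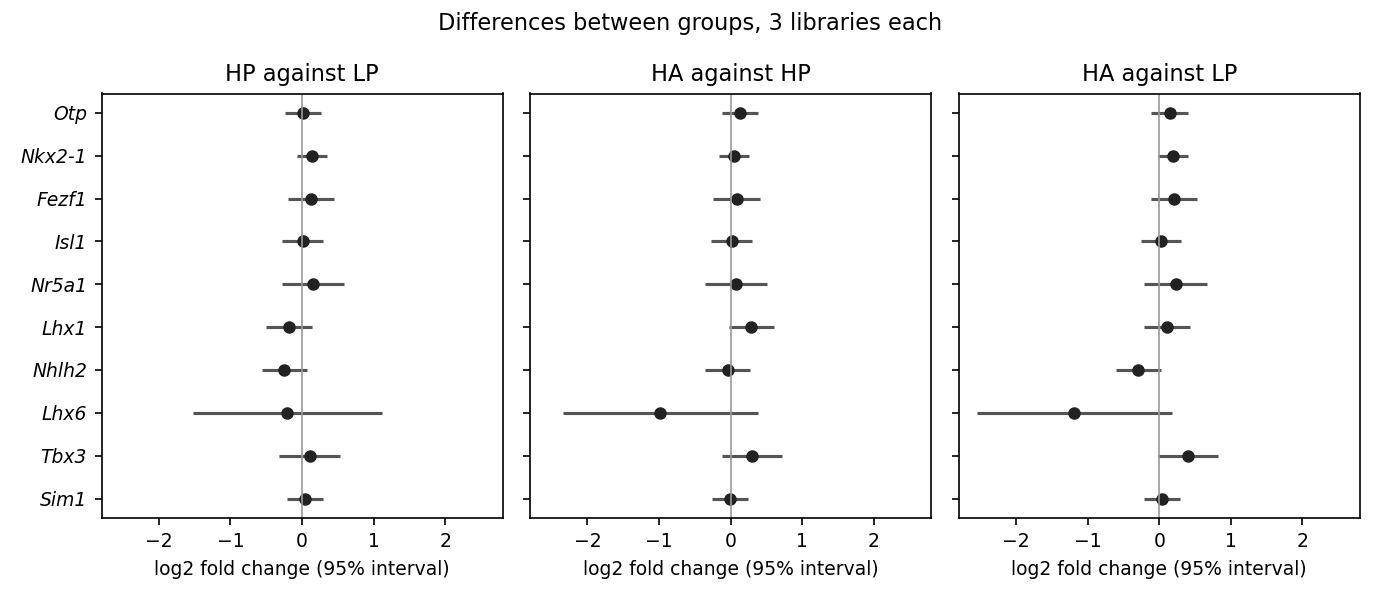
Log2 fold change (edgeR) of the 10 genes in each comparison, with bars for the 95% interval. Every interval includes 0, and those of Lhx6 are the widest, from -2.55 to 0.17 in HA against LP.

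Several members were low or high in the same library. LP replicate 2 was the lowest library for 7 of the 10 genes (Otp, Nkx2-1, Sim1, Nr5a1, Fezf1, Lhx1 and Tbx3), whereas it was the lowest for 10.7% of all genes tested. HA replicate 2 was the highest library for Sim1, Nr5a1, Fezf1 and Lhx1 and was the highest for 9.35% of all genes. LP replicate 2 was also the library highest in striatal markers, and whether that share of other tissue lowers the 7 genes was not tested.

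**Figure D4:**
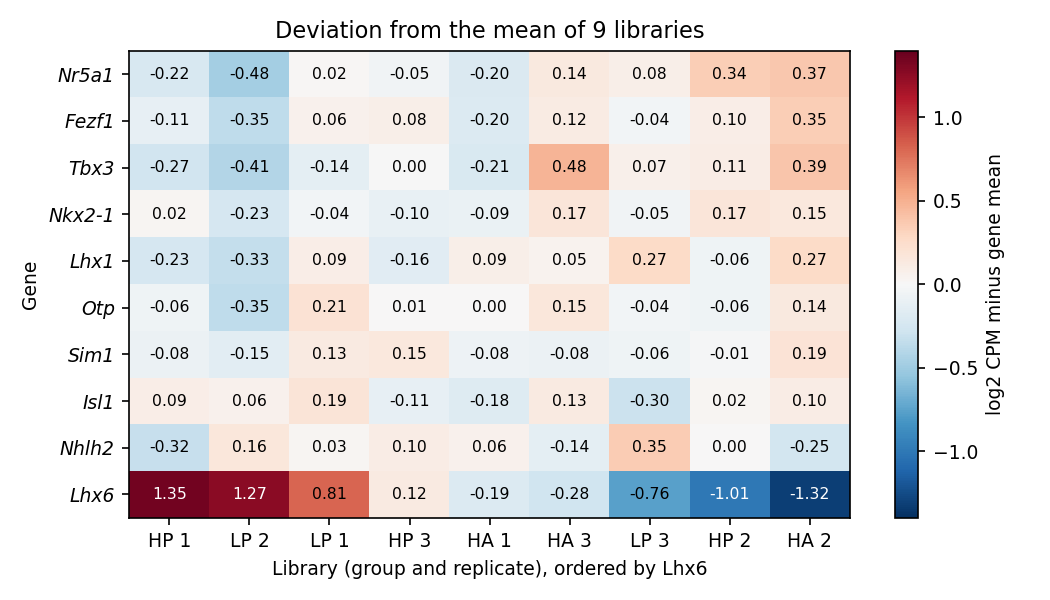
Log2 CPM of each gene minus its mean over 9 libraries, with libraries ordered from highest to lowest Lhx6. LP replicate 2 is low for Nr5a1 (-0.48), Tbx3 (-0.41), Fezf1 and Otp (both -0.35), while Lhx6 runs from 1.35 in HP replicate 1 to -1.32 in HA replicate 2.

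Pearson correlations of log2 CPM were computed for all 45 pairs of members over the 9 libraries, with two-sided exact permutation p-values adjusted by Benjamini-Hochberg over the 45. The ventromedial pair Nr5a1 and Fezf1 had the highest r, 0.91 (exact p = 0.00109, adjusted 0.0451), with a Spearman rho of 0.90 (exact p = 0.00203, adjusted 0.0228). Tbx3 followed both, with r = 0.85 to Nr5a1 and 0.85 to Fezf1 (exact p = 0.00437 and 0.00366, each 0.0451 adjusted) and rho of 0.93 and 0.92 (exact p = 0.00075 and 0.00131, each 0.0228 adjusted). Of the members read for the arcuate nucleus, Tbx3 alone did so. Isl1 had r = 0.10 and 0.27 to Nr5a1 and Fezf1, and Nhlh2 r = -0.24 and -0.42, none of which passed. Nkx2-1 and Nr5a1 had r = 0.85 (exact p = 0.0048, adjusted 0.0451) and rho = 0.73, which missed the threshold (exact p = 0.0311, adjusted 0.156). Lhx6 ran opposite to Nr5a1, with r = -0.84 (exact p = 0.00502, adjusted 0.0451) and rho = -0.90 (exact p = 0.00203, adjusted 0.0228).

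These 5 pairs were the ones that passed by Pearson, and all but Nkx2-1 with Nr5a1 passed by Spearman. The share of pairs of other genes that would pass was not computed. The permutation p-values also make no allowance for the differences in neighbouring tissue between libraries. Whether the 5 pairs are specific to these factors was therefore not tested. Without the 2 libraries farthest from the median of the gene named first, Nr5a1 with Fezf1 had r = 0.76 and Nr5a1 with Lhx6 r = -0.70 without LP replicate 2 and HA replicate 2. Without the same libraries Nr5a1 with Tbx3 had r = 0.70 and Fezf1 with Tbx3 r = 0.71. Nkx2-1 with Nr5a1 had r = 0.82 without HP replicate 2 and HA replicate 3. After subtraction of group means r was 0.89 for Nr5a1 with Fezf1 and -0.83 for Nr5a1 with Lhx6. The title codes hold 1 to 4 libraries each, too few for values within a code. Otp and Sim1, which share the paraventricular nucleus, had r = 0.63 (exact p = 0.0659, adjusted 0.165) and were not among the 5 pairs. Lhx6 had a negative r with 8 of the other 9 members.

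**Figure D5:**
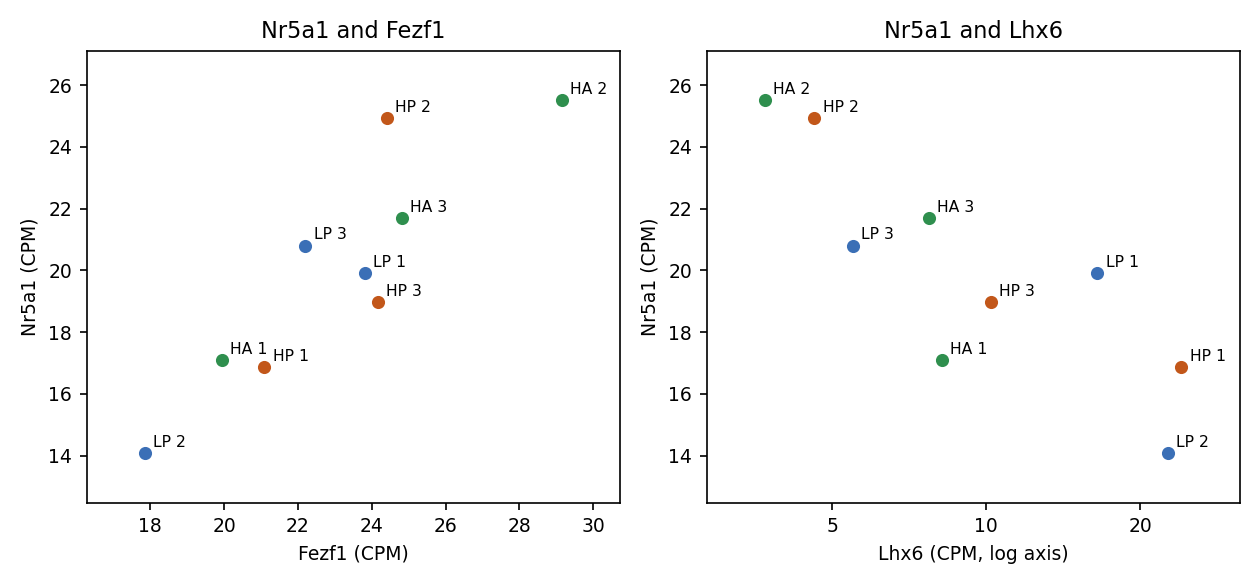
CPM of Nr5a1 against Fezf1 (left) and against Lhx6 on a log axis (right), 1 labelled point per library. Nr5a1 climbs with Fezf1 from LP replicate 2 to HA replicate 2, and of the 3 libraries highest in Lhx6, LP replicate 2 and HP replicate 1 are the lowest in Nr5a1 (14.1 and 16.9 CPM) and LP replicate 1 is in the middle (19.9 CPM).

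Genes with the most similar pattern were sought for each member among 13598 other named protein-coding genes, as a description with no p, since the highest of so many values over 9 libraries is high by selection. For Nkx2-1 the most similar was Six6, another homeobox gene of the ventral hypothalamus (r = 0.96), which had 7.39 CPM in LP replicate 2 against 13.9 CPM in HA replicate 2. For Nr5a1 they were Gpx3 (r = 0.96), Myh2 (0.95) and Agrp (0.93), the last being the hunger peptide gene of arcuate neurons, with 9.33 CPM in LP replicate 2 against 16.3 CPM in HA replicate 2. For Fezf1 the closest gene was Trh, the thyrotropin-releasing hormone gene (r = 0.98), at 109.4 and 142.7 CPM in the same libraries. For Lhx6 they were Gad1 (r = 0.96), Adcy1 (0.95) and Gad2 (0.94). Gad1 and Gad2, which make GABA, stood at 378.7 and 549.7 CPM in HP replicate 1 and at 258.6 and 342.1 CPM in HA replicate 2. Chmp4c was among the 3 closest to Isl1 (r = 0.95). The closest gene for Tbx3 was the guidance gene Slit2 (0.94), for Otp the chromatin gene Arid1a (0.97), for Lhx1 Rhbdd1 (0.95), for Nhlh2 Mthfd1l (0.91) and for Sim1 Vps53 (0.91).

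Another 37 transcription factor genes of hypothalamic nuclei were read in the same way. All 37 were tested, and edgeR called 0 in each comparison, with 2 at an unadjusted p under 0.05 in HP against LP (6.12% of all genes tested were), 4 in HA against HP (5.42% of all genes) and 8 in HA against LP (6.51% of all genes). Hmx2, an arcuate homeobox gene, stood at 4.17 ± 0.616 CPM in LP, 5.62 ± 0.637 in HP and 4.20 ± 0.321 in HA (SD, n = 3 each), with adjusted p-values of 0.797 and 0.840 (edgeR) for HP against LP and HA against HP. Nkx2-4, a relative of Nkx2-1, stood at 10.2 ± 1.07, 7.998 ± 2.13 and 10.7 ± 0.448 CPM. Foxp2 stood at 17.7 ± 1.79, 15.0 ± 0.689 and 13.8 ± 1.05 CPM, and in HA against LP it had the smallest p of the 37 (log2 fold change -0.36, SE 0.101, adjusted p = 0.645, edgeR). Nr0b1, which encodes DAX-1, a partner of SF-1 in the ventromedial nucleus, stood at 1.46 ± 0.283, 1.91 ± 0.393 and 2.59 ± 0.459 CPM (HA against LP, log2 fold change 0.83, adjusted p = 0.645, edgeR). Six3 stood at 31.7 ± 4.04, 35.5 ± 2.42 and 39.1 ± 1.91 CPM and Rax at 0.971 ± 0.193, 1.31 ± 0.453 and 1.78 ± 0.466 CPM. Sox14 stood at 3.75 ± 0.767, 3.56 ± 0.289 and 4.91 ± 0.925 CPM. Arnt2, the dimer partner of SIM1, stood at 253.2 ± 8.47, 253.3 ± 9.24 and 237.8 ± 2.67 CPM.

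Output genes of the same nuclei were mostly present beside their factors, except that Kiss1, the kisspeptin gene of arcuate neurons, had 0 counts in all 9 libraries. Tac2, another arcuate output gene, lay between 19.9 and 24.55 CPM. Overlapping gene models were sought for the 10 members only, so whether reads of Kiss1 went uncounted was not tested. Avp and Oxt, the hormone genes of paraventricular and supraoptic neurons, lay between 384.7 and 725.7 CPM and between 93.3 and 184.3 CPM over the 9 libraries. Pomc lay between 48.3 and 87.5 CPM, Adcyap1, the PACAP gene of ventromedial neurons, between 98.2 and 157.8 CPM, and Vip, a peptide gene of suprachiasmatic neurons, between 11.3 and 17.05 CPM. The peptide genes named here, other than Kiss1, were thus detected in every library.

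Some members overlap other gene models, and without strand reads of a pair cannot be told apart. The antisense gene Gm26973 had a mean of 36.9 counts against 803.8 for Nkx2-1, Nr5a1os 10.3 against 388.3 for Nr5a1, and Tbx3os1 15 to 24 counts against a mean of 296.6 for Tbx3. Gm27953, inside Lhx6, had 0 to 2 counts.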

How the data were processed

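RNA-seq libraries of 9 hypothalami were made from 3 µg of RNA with a NEBNext Ultra kit, per the labels' protocols. The authors deposited whole-number read counts per gene, which are not normalized, and FPKM values for the same libraries; the median ratio of deposited FPKM to that recomputed from count, length and total lay between 0.981 and 1.01. The submitters' processing notes name the aligner HISAT2 (2.0.5), the counter featureCounts (1.5.0-p3), DESeq2 (1.16.1) and, as build, mm9. Among 54495 identifiers in common with GENCODE M21 (GRCm38), 98.3% had the deposited start and end, all 10 members included, so coordinates are read as GRCm38. Strand setting is not given in the sources used here.

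Counts were tested with edgeR 4.0.16 in R 4.3.3 (filterByExpr, TMM, quasi-likelihood F test, group as the only term, all 9 libraries), two-sided, adjusted over 17546 genes with a threshold of 0.05. SE was taken as the size of the estimate over the root of F, and intervals use the fit's degrees of freedom. CPM uses TMM-scaled library sizes, and log2 CPM a prior count of 2. FPKM served to compare levels between genes. The fit was tested on simulated data. Counts of paired libraries differed by more than sampling noise (chi-square per degree of freedom 4.73 to 25.8). An exact permutation test of 3 against 3 cannot go below 0.1, so none was used for single genes. The named genes are the 10 members, overlapping genes, the 3 genes most like each member (1 to 3 of them printed), up to 4 of smallest p per comparison among the other transcription factors, and marker genes of the fixed lists. Other than that, examples of neighbouring tissue were chosen after their values were seen. Some genes that these rules select are not reported here. Members and lists were chosen with earlier results of these data known.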

Additional observations from a re-analysis of the deposited data

How the results depend on the processing

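No member was called in any comparison under the 23 alternatives to the reported fit, and the lowest adjusted p of a member was 0.494. Of 690 log2 fold changes of members under alternatives, 46 changed sign, in 16 of 30 results. The cause of the sign changes was not tested. With library totals in place of TMM, Sim1 was at 0.013 in HA against HP. Without LP replicates 1 and 2, which leaves 1 LP library assumed to vary like the others, Nr5a1 was at -0.039, Lhx6 at 1.24 and Tbx3 at -0.11 in HP against LP, and Lhx1 was at -0.14 and Lhx6 at 0.25 in HA against LP. Without LP replicates 1 and 2 and HP replicate 1, a setting chosen after seeing the data, Lhx6 was at 0.43 and Tbx3 at -0.013 in HP against LP, Nr5a1 at -0.042 in HA against HP, and Lhx1 at -0.14 and Lhx6 at 0.25 in HA against LP. Without LP replicate 3 and HA replicate 3, the 2 libraries high in meningeal genes, Isl1 was at -0.12 in HP against LP, -0.037 in HA against HP and -0.16 in HA against LP, with Nkx2-1 at -0.00027 and Sim1 at 0.041 in HA against HP.

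Leaving out single libraries accounted for 30 of the 46 sign changes. In HP against LP the log2 fold changes then ranged from -1.01 (without HP replicate 1) to 0.23 (without LP replicate 2) for Lhx6, from -0.028 to 0.27 for Nr5a1, from -0.12 to 0.11 for Isl1, from -0.12 to 0.16 for Otp, from -0.026 to 0.12 for Sim1 and from -0.011 to 0.23 for Tbx3. In HA against HP they ranged from -0.051 to 0.21 for Fezf1, from -0.041 to 0.11 for Isl1, from -0.16 to 0.043 for Nhlh2, from -0.022 to 0.12 for Nkx2-1, from -0.062 to 0.26 for Nr5a1 and from -0.098 to 0.060 for Sim1. In HA against LP they ranged from -0.099 to 0.13 for Isl1, from -0.048 to 0.25 for Lhx1 and from -0.057 to 0.11 for Sim1.

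The number of all genes called, 2 in HP against LP, 2 in HA against HP and 0 in HA against LP, depended on the setting. DESeq2 called 32, 7 and 25, and edgeR with no filter on low counts 53, 5 and 41. Without LP replicate 3 and HA replicate 3 the counts were 37, 10 and 23. Limma on FPKM called 6 and 4 in HP against LP and HA against HP with a pseudocount of 0.1, 4 and 4 with a pseudocount of 1, and 8, 6 and 1 in the 3 comparisons with 0.1 and no filter. In HP against LP the count was 1 with library totals, 4 with only the 2 groups compared and 0 without LP replicates 1 and 2 and HP replicate 1. In HA against LP it was 1 with only the 2 groups compared. Leaving out single libraries gave 1 to 21 in HP against LP, 1 to 9 in HA against HP and 0 to 14 in HA against LP. Same-numbered libraries had correlated deviations above 0.1 in 6 of 9 pairs (r from -0.028 to 0.49). The highest was LP replicate 3 with HA replicate 3, the 2 libraries high in meningeal genes. Differently numbered libraries of different groups had r from -0.37 to 0.25. Those above 0.1 were LP replicate 1 with HA replicate 2 (0.25), LP replicate 2 with HA replicate 1 (0.18) and HP replicate 1 with HA replicate 2 (0.11). These values do not settle whether the numbers pair the samples, and the reported fit does not pair them. With the replicate number as a block, 4 genes were called in HP against LP and 0 members in any comparison. With the title code as a term, on HP and HA only, 3 genes and 0 members were called in HA against HP.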

Other observations

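Some transcription factor genes of the mammillary region, just behind the tuberal nuclei, also differed between libraries of a group. Foxb1, which is needed for the mammillary body, stood at 35.7 CPM in LP replicate 3 and between 14.5 and 30.5 CPM in the other 8 libraries. Foxa1 stood at 8.44 CPM in LP replicate 3 and between 2.45 and 7.01 CPM elsewhere. Lmx1a was at 8.33 CPM in LP replicate 3, 2.89 CPM in HP replicate 1 and 1.76 CPM in HA replicate 3. Lhx5 from the same list stayed between 13.0 and 17.1 CPM, its highest library being 1.31 times its lowest. Barhl1 was highest in HP replicate 3 (4.86 CPM), with 3.55 CPM in LP replicate 3. Of the lateral hypothalamic peptide genes, Hcrt, which encodes orexin, ranged from 51.4 CPM in HA replicate 2 to 152.6 CPM in HP replicate 3, and Pmch, which encodes melanin-concentrating hormone, from 76.3 CPM in HA replicate 3 to 168.6 CPM in HP replicate 3. These genes were chosen after their values were seen and are given with no test.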
